A study of Mus musculus with 8 samples.

Results

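The 10 genes described here are fatty acid binding proteins and genes that regulate or serve fat cell formation, namely Fabp4, Fabp5, Fabp3, Pparg, Cebpa, Cebpb, Cebpd, Lpl, Cd36 and Plin2. They were chosen by name, and every probe whose accession belonged to 1 of them was used, which gave 12 probes of the 39429 on the array and 10 of the 20886 genes with a RefSeq name. Each gene had 1 probe with 1 spot, except Fabp3 and Lpl, which had 2 probes each, and Pparg, whose probe had 10 spots. The data were 8 two-colour Agilent arrays of mouse cell lines, 4 of 3T3L-1, a fibroblast line of embryonic origin that can form fat cells, and 4 of Raw264.7, a macrophage line of BALB/c origin. On all 8 arrays the cells came from the lower well of a co-culture in which the other line grew in a porous insert, so that the lines shared medium without touching, and RNA was taken at 48 h. Per the methods, both lines were seeded in equal numbers where 3T3L-1 cells were in the lower well. Where Raw264.7 cells were in the lower well, they outnumbered the 3T3L-1 cells of the insert. Each line had 1 array with no hormone, 1 with 100 µM cortisol, 1 with 100 µM serotonin and 1 with cortisol and serotonin together, for which the labels give 100 µM of each and the methods a single dose. The hormones were dissolved in DMSO, and the sources used here do not say whether the cells without hormone received it. The 3T3L-1 cells were not taken through a differentiation protocol, and the study calls them pre-adipocytes.

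Fat cell formation runs through a chain of transcription factors. C/EBPβ and C/EBPδ act early and lead to PPARγ and C/EBPα, which maintain each other and switch on genes for lipid handling. PPARγ is a nuclear receptor for fatty acid derivatives, and Fabp4 is among its best known targets. The fatty acid binding proteins are small carriers that move fatty acids through the cytosol; FABP4 (also called aP2) is typical of fat cells and also found in macrophages, FABP5 is widespread, and FABP3 belongs to heart and muscle. Lipoprotein lipase, encoded by Lpl, frees fatty acids from circulating triglyceride, CD36 carries them across the plasma membrane, and PLIN2 coats the lipid droplets in which they are stored. Glucocorticoids such as cortisol are among the hormones used to start fat cell formation in culture.

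The stretches before the transcription starts of Pparg and Cd36 are printed because these genes had the widest differences between the cell lines, in opposite directions. Pparg has alternative first exons, and the downstream start gives the isoform typical of fat cells, so its first and its last listed start are both shown. RefSeq windows (build GRCm38.p6) were held for 6 of the 10 genes, 8 windows in all, and each was read over the 250 bases before the start, 5′ to 3′ on the strand of the gene. Capitals mark short motifs, on either strand.
Pparg, first start, chr6:115360894-115361143, plus strand: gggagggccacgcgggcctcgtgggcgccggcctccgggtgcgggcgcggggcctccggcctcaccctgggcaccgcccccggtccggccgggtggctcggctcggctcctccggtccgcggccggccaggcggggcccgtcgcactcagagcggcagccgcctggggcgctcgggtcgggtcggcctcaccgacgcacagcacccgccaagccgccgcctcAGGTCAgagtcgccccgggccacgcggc
Pparg, last start, chr6:115421816-115422065, plus strand: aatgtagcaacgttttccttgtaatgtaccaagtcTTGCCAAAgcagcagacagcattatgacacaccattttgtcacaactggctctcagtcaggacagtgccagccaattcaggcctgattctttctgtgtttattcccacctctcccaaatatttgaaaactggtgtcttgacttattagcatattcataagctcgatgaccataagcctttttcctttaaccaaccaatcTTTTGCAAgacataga
Cd36, chr5:17835897-17836146, minus strand: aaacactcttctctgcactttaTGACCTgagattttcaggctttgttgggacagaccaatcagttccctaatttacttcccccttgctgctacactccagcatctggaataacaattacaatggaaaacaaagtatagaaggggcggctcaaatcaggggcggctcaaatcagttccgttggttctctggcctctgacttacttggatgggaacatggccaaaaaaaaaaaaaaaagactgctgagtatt
The motifs searched were AGGTCA, a half-site of nuclear receptors such as PPARγ, AGAACA, a half-site of the glucocorticoid receptor, TTGCNNAA, a core bound by C/EBP factors, GAGGAAG, a core of the macrophage factor PU.1, and TATAAA, and none of these overlapped another in the printed stretches. The last Pparg start had 2 matches to the C/EBP core, 215 and 16 bases before the start, and the other 7 windows had none, while 9.56% of 32851 windows of all genes held this core. A nuclear receptor half-site lay before the first Pparg start, the middle Pparg start, Cd36 and Plin2, against 14% of all windows. The glucocorticoid half-site, present in 16.1% of all windows, and the PU.1 core, present in 10.6%, were in none of the 8 windows. The TATA core, found in 12.4% of all windows, lay 30 bases before the start of Cebpa and 29 bases before the middle start of Pparg. The first Pparg window was 82.4% G and C and the last 40.8%, and a match to a motif is a description of the letters only.

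Whether the labels cortisol and serotonin stand on the right arrays bears on every direction given for a hormone. In 3T3L-1 cells, Fkbp5 and Zbtb16, which glucocorticoids are known to raise, were higher by 1.31 and 1.94 on the log2 scale on the array labelled serotonin, and by 1.44 and 1.96 on the array labelled cortisol-serotonin. On the array labelled cortisol they differed by 0.14 and -0.19. Tsc22d3, another gene raised by glucocorticoids, differed by -1.06 with cortisol, 0.41 with serotonin and 0.77 with cortisol-serotonin. Per1, a clock gene that glucocorticoids also raise, differed by -0.41 with cortisol, 0.39 with serotonin and 0.62 with cortisol-serotonin. In Raw264.7 cells Tsc22d3 differed by -0.29, 0.63 and 0.52 in the same order, and Fkbp5 by -0.18, 0.33 and 0.008. The 6 glucocorticoid response genes measured there had medians of -0.23, 0.35 and 0.09, and none reached 2-fold. The medians of the 7 measured in 3T3L-1 cells were -0.19, 0.79 and 0.78. Each array goes by its own label here, and whether these labels were exchanged was not settled. The median Cy5 signal was 50 to 102 units, with backgrounds of 26.5 to 28 and no saturation. The serotonin array of Raw264.7 cells stood apart, with the median of 102 against 50 to 59.5 on the other arrays of that line, and the pre-adipocyte and fibroblast markers had a median difference of 0.64 from the untreated array there. The 6 markers of mature fat cells were Adipoq, Retn, Cfd, Plin1, Cidec and Lep. On the 4 arrays of 3T3L-1 cells none was well above background in the sample channel. Their summed signal there was 594 units without hormone and 107 to 133 on the treated arrays. No change is read from such dim signals. In Raw264.7 cells 4 of them (all but Cidec and Lep) were well above background on the array labelled serotonin. On the cortisol-serotonin array of that line 1 was, Plin1, and on its untreated and cortisol arrays none was. Cell line, slide and the seeding of the co-culture coincide, and each treatment had the same position on both slides, so these cannot be told apart.

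Levels are given as the log2 ratio of Cy5 (the sample) to Cy3 (a common reference that was the same on all arrays), so that a value compares 1 gene across arrays and says nothing about the abundance of different genes. A ratio was used where Cy5 and Cy3 of the probe were both well above background on each array of a comparison. Fabp3 and Cebpa met this in neither line and Cd36 only in Raw264.7 cells, while the other 7 genes met it in both, apart from marked spots of Fabp5 and Cebpb. As each condition has 1 array, the difference of 2 arrays could not be checked against replicates and carries no p-value. The error given with it comes from the error model of the scanner software and covers technical noise only. The cells were measured in bulk, and a change in the share of expressing cells cannot be told from a change in RNA per cell.

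**Figure D1:**
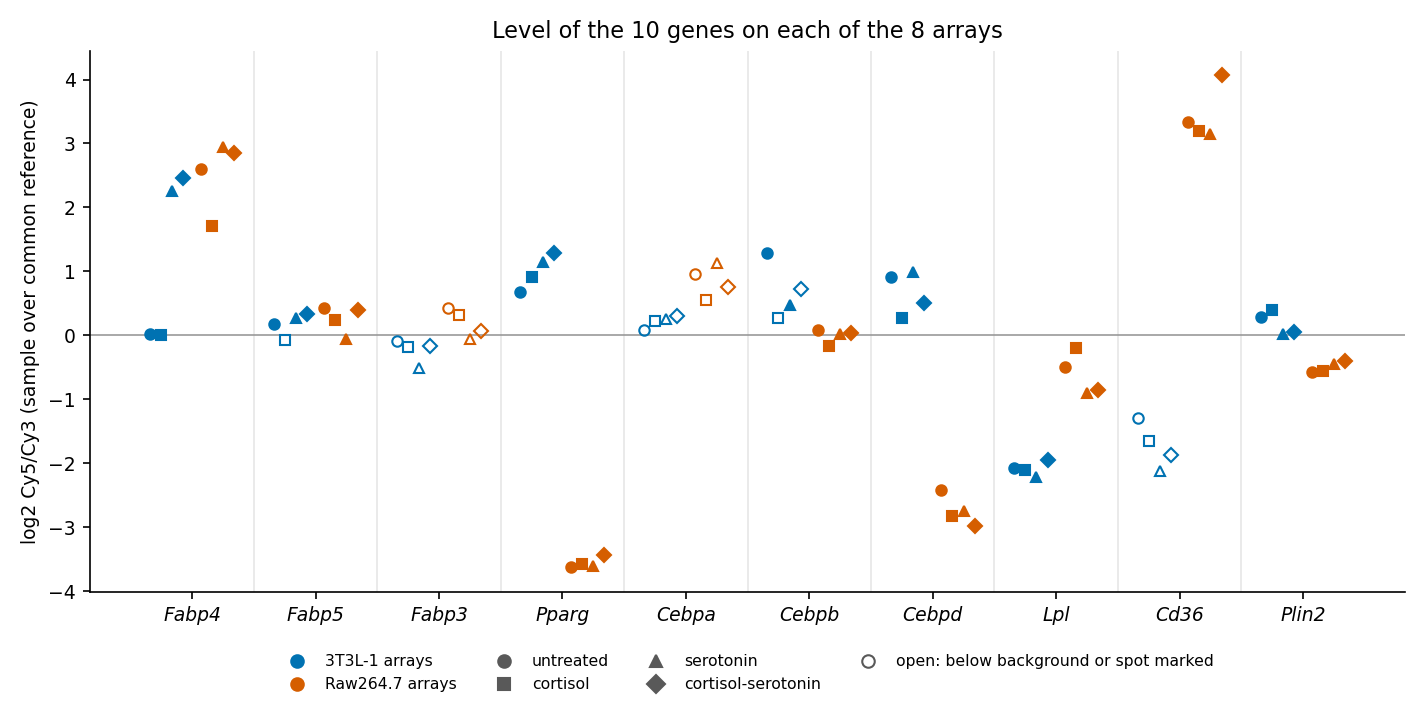
Log2 ratio of the sample (Cy5) to the common reference (Cy3), vertical axis, for each of the 10 genes on the 8 arrays (blue, 3T3L-1; orange, Raw264.7; the shape gives the treatment label; the mean over probes where a gene has 2). Open symbols were not well above background in both channels or came from a spot the scanner marked. Pparg and Cebpd were higher on all 4 arrays of 3T3L-1 cells, Lpl and Cd36 on all 4 arrays of Raw264.7 cells, and Fabp4 of 3T3L-1 cells lay near 0 on 2 arrays and above 2 on the other 2.

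Fabp4 was the member with the largest differences between treatments in the loess-normalised ratios. On the arrays of 3T3L-1 cells its log2 ratio was 0.02 without hormone, 0.01 with cortisol, 2.26 with serotonin and 2.47 with cortisol-serotonin. The first pair of arrays and the second pair lay more than 2 log2 units apart. Against the untreated array, the Fabp4 difference was 2.24 with serotonin (error 0.359), which is 4.73-fold, and 2.45 with cortisol-serotonin (error 0.372), which is 5.45-fold. The difference with cortisol was -0.01 (error 0.289). Among named genes ordered by this difference, it stood 7th from the top of 10888 with serotonin and 6th of 10789 with cortisol-serotonin. In Raw264.7 cells its log2 ratio was 2.60 without hormone, 1.72 with cortisol, 2.94 with serotonin and 2.86 with cortisol-serotonin. The array labelled cortisol was the lowest of that line, 1.84-fold below the untreated array (log2 -0.88, error 0.419), and it stood 10493rd of 10499 named genes. In the sample channel alone that difference was -0.36, and relative to the median gene the sample signal differed by -0.37 and the reference signal by 0.57. With serotonin and with cortisol-serotonin it was above the untreated array by 0.34 (error 0.477) and 0.26 (error 0.475), within the error.

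The difference of Fabp4 in 3T3L-1 cells appeared in both channels. The sample signal was 10322 units without hormone, 9808 with cortisol, 43501 with serotonin and 40328.5 with cortisol-serotonin. The reference signal on the same spots was 16447, 16067, 8461 and 9088.5, lower on the last 2 arrays although the reference was the same RNA on each array. Against the untreated array the sample channel differed by 2.06 and 1.95 on the log2 scale with serotonin and cortisol-serotonin, and the reference channel by -0.96 and -0.86, or by -0.78 and -0.74 relative to the median gene. The lowest 5% of all genes had a reference change below -0.52 and -0.36 on these arrays, so the reference signal of Fabp4 was lower by more than that of most genes. With the sample channel alone the difference was 1.59 and 1.49, or 3.02-fold and 2.81-fold higher. What part the reference signal had in the ratio was not tested.

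**Figure D2:**
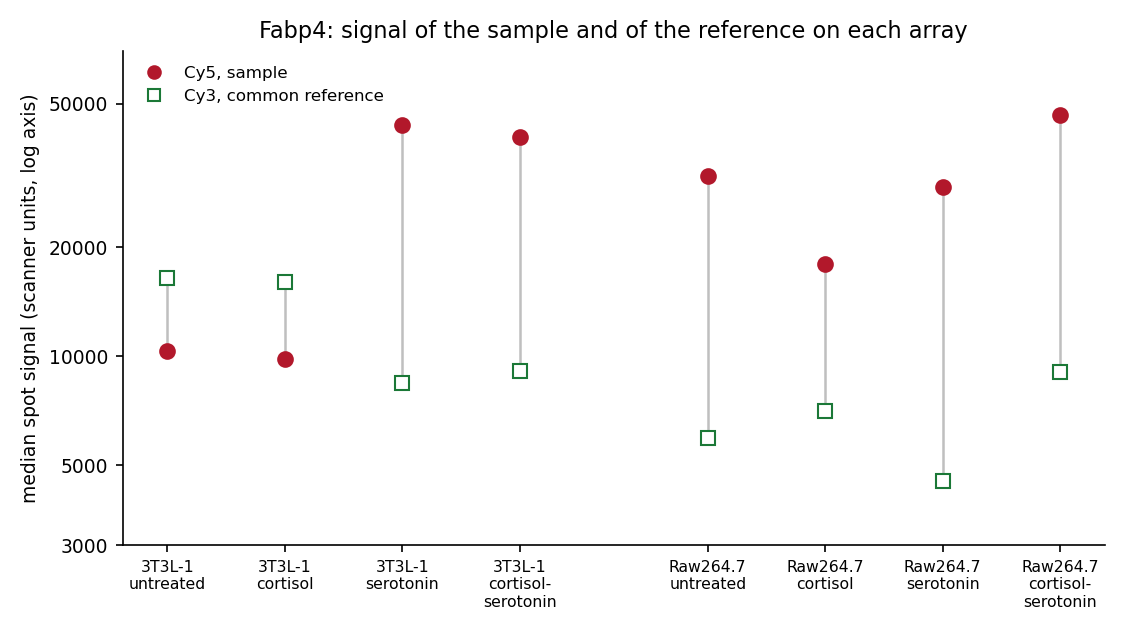
Median spot signal of Fabp4 in scanner units, on a log axis, in the sample channel (Cy5, filled circles) and the reference channel (Cy3, open squares) on each of the 8 arrays, 1 spot per array. In 3T3L-1 cells the sample signal was 10322 and 9808 on the untreated and cortisol arrays and 43501 and 40328.5 on the serotonin and cortisol-serotonin arrays, while the reference signal was lower on the latter pair.

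A model of all 8 arrays with an effect of each hormone in each line, added without an interaction and with 2 residual degrees of freedom, was fitted by limma over 10995 genes. It had to stand on each hormone being present on 2 arrays of a line, since no condition was repeated. For serotonin in 3T3L-1 cells it called 12 genes, 0.109% of those tested, and Fabp4 was the only one of the 5 members tested (Fabp4, Pparg, Cebpd, Lpl and Plin2), with a log2 effect of 2.35 (standard error 0.203, limma adjusted p = 0.0190). This call depended on the processing and the arrays: leaving out any single array of 3T3L-1 cells gave effects of 2.24 to 2.46 with limma adjusted p of 0.122 to 0.196, the processed signals of the scanner software gave 2.30 (limma adjusted p = 0.0905) and the sample channel alone gave 1.5 (limma adjusted p = 0.743). With the arrays of 3T3L-1 cells fitted alone, the Fabp4 effect of serotonin was 2.35 (limma adjusted p = 4.21e-14), and 367 of 12962 genes were called. The p-value thus turned in both directions with the arrays and processing that gave the spread. The other 5 effects fitted, cortisol in each line, serotonin in Raw264.7 cells and the differences of both between the lines, were called by limma for 0 genes (0%), with 279 to 824 genes at an unadjusted p under 0.05. In Raw264.7 cells the Fabp4 effect was 0.74 for serotonin (unadjusted p = 0.00754, limma adjusted p = 0.999) and -0.48 for cortisol (unadjusted p = 0.0479, limma adjusted p = 1.00), and with 1 array left out they ran from 0.34 to 1.14 and from -0.88 to -0.08. The serotonin effect on Fabp4 was larger in 3T3L-1 than in Raw264.7 cells by 1.61 (standard error 0.288, unadjusted p = 0.00066, limma adjusted p = 0.269), which did not pass, and without the Raw264.7 array of cortisol or of cortisol-serotonin it was 2.01 and passed (limma adjusted p = 0.00286 and 0.000516). Without the untreated or the serotonin array of Raw264.7 cells it was 1.21 and did not pass (limma adjusted p = 0.348 and 0.208). The corresponding difference for cortisol was 0.58 (limma adjusted p = 0.980).

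Since Fabp4 was higher in macrophages, the macrophage markers on the arrays of 3T3L-1 cells are given beside its values. Of 19 such markers with a probe, 13, 15, 13 and 12 were well above background in the sample channel on the untreated, cortisol, serotonin and cortisol-serotonin arrays of 3T3L-1 cells, and Adgre1, C1qa, C1qc and Spi1 were not on any of the 4. Their summed sample signal was 9320 to 12393 units in 3T3L-1 cells and 118238 to 176802 in Raw264.7 cells. Their median difference from the untreated array was -0.14 with cortisol, -0.46 with serotonin and -0.34 with cortisol-serotonin, and Ctss, a protease of macrophages, differed by -1.75 and -1.12 on the arrays on which Fabp4 was higher (errors 1.08 and 1.05). No marker of this list was at least 2-fold higher on any array of 3T3L-1 cells.

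The genes whose 6 differences lay nearest to those of Fabp4, by root mean square distance over the 3 treated arrays of each line among 10995 genes, were Cyb561 (0.516), Slc6a12 (0.608), Ifi207 (0.628), Fkbp5 (0.638) and Tent5b (0.688). All 5 were at least 2-fold higher in 3T3L-1 cells with serotonin and with cortisol-serotonin. Cyb561 stood at 1.77 and 1.97 and Tent5b at 1.68 and 1.30 on the log2 scale. The genes were chosen by these same differences, so their being high on those arrays is no separate result. Fkbp5, the glucocorticoid-responsive gene of the label check, was thus among them. The other members measured on all arrays were farther away, from 1.12 for Pparg to 1.56 for Cebpd. The 3 differences of a line share its untreated array.

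Of the other fatty acid binding proteins, Fabp5 gave no difference of 2-fold and Fabp3 was too dim for a difference to be read. Fabp5 had a log2 ratio of 0.18 without hormone, 0.27 with serotonin and 0.34 with cortisol-serotonin on the arrays of 3T3L-1 cells, and its single spot on the cortisol array was marked as uneven by the scanner and read -0.07. In Raw264.7 cells Fabp5 was 0.43 without hormone, 0.25 with cortisol, -0.05 with serotonin and 0.39 with cortisol-serotonin. The serotonin array was the lowest of that line, 1.4-fold below the untreated array (log2 -0.48, error 0.290), and the values of the lines overlapped. In the sample channel alone that difference was 0.0095, and the differences with serotonin and cortisol-serotonin in 3T3L-1 cells, 0.09 and 0.16 by ratio, were -0.08 and -0.27. Fabp3 gave sample signals of 38 to 50 units with its first probe in 3T3L-1 cells and 57 to 82 in Raw264.7 cells, close to background. Its second probe read 42 to 57 units on 3 arrays of 3T3L-1 cells and 103.5 on the array labelled serotonin, where it was well above background in both channels and the first probe, at 41, was not. The reference signal of that second spot was higher there too, 302 units against 109 to 155.5. By ratio this spot was the lowest of the line, at log2 -0.92 against -0.26 to -0.12. The probes of Fabp3 therefore disagreed on that array.

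Pparg was measured by 10 spots on each array, and its level in 3T3L-1 cells was 0.68 without hormone, 0.92 with cortisol, 1.15 with serotonin and 1.29 with cortisol-serotonin. The spots on an array had an SD of 0.0383, 0.0586, 0.0639 and 0.0881, and they are technical repeats of 1 sample (10, 8, 10 and 8 spots used). All spots used on the 3 treated arrays, from 0.833 upward, lay above the highest spot of the untreated array, 0.722. Pparg was 1.18-fold higher with cortisol (log2 0.24, error 0.105), 1.38-fold higher with serotonin (log2 0.47, error 0.101) and 1.53-fold higher with cortisol-serotonin (log2 0.61, error 0.109), below 2-fold on each array. With the sample channel alone the differences were 0.25, 0.44 and 0.45. The fitted serotonin effect in 3T3L-1 cells was 0.42 (standard error 0.137, unadjusted p = 0.0169, limma adjusted p = 0.281). In Raw264.7 cells Pparg was low, at -3.62, -3.57, -3.60 and -3.43 in the same order, and its differences of 0.05, 0.02 and 0.19 were within their errors of 0.225 to 0.233. In the sample channel alone the difference with serotonin was -0.37. The spots of these arrays overlapped throughout, with sample signals of 65.7 to 99 units.

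**Figure D3:**
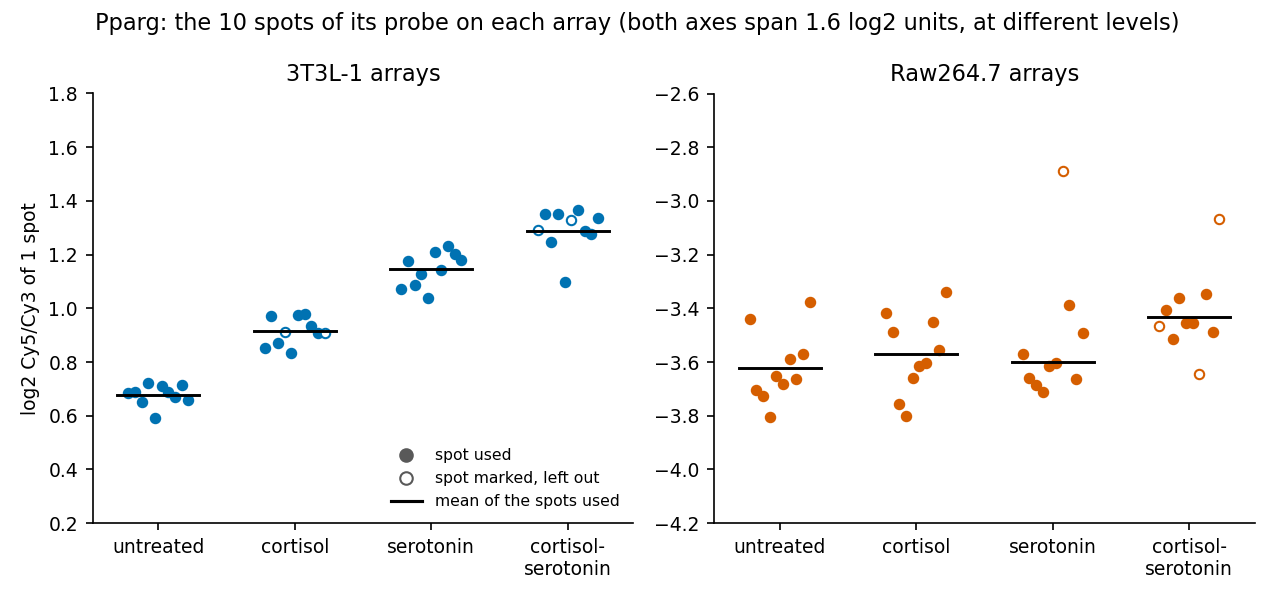
Log2 ratio of Cy5 to Cy3, vertical axis, of each of the 10 spots of the Pparg probe on the 4 arrays of 3T3L-1 cells (left) and of Raw264.7 cells (right). Lines are means of the spots used, and open circles are spots the scanner marked. The spots of the 3T3L-1 arrays have means from 0.68 to 1.29, and those of the Raw264.7 arrays overlap between -3.81 and -3.34.

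No C/EBP gene was higher than in untreated cells by more than its error in the loess-normalised ratios. Cebpd, an early regulator that glucocorticoids are known to raise, had log2 ratios in 3T3L-1 cells of 0.92 without hormone, 0.27 with cortisol, 1.00 with serotonin and 0.51 with cortisol-serotonin. The cortisol array was the lowest, 1.57-fold below the untreated array (log2 -0.65, error 0.302), the cortisol-serotonin array differed by -0.40 (error 0.305) and the serotonin array by 0.08 (error 0.316). The fitted cortisol effect on Cebpd in 3T3L-1 cells was -0.57 (standard error 0.141, unadjusted p = 0.00458, limma adjusted p = 0.898). With median centring in place of loess the Cebpd difference with cortisol turned to 0.41, which lay 0.18 below the median of all genes (-0.18), and with serotonin it stood 0.50 above that median, while the sample channel alone gave -0.37 and -0.16. In Raw264.7 cells Cebpd was -2.42, -2.82, -2.74 and -2.98 in the same order, with differences of -0.40, -0.32 and -0.56 from the untreated array and errors of 0.435 to 0.447. Cebpb had a log2 ratio of 1.29 without hormone and 0.48 with serotonin in 3T3L-1 cells, a difference of -0.81 (error 0.312). Its spots on the cortisol and cortisol-serotonin arrays were marked as uneven and read 0.27 and 0.72, which is 2.04-fold and 1.48-fold below the untreated array. With median centring the Cebpb difference with serotonin turned to 0.77, while the median of all genes stood at 1.07, so relative to that median it was -0.31, and the sample channel alone gave -0.15. In Raw264.7 cells Cebpb lay between -0.16 and 0.08, and its difference with serotonin, -0.06 by ratio, was -0.47 with median centring and -0.59 in the sample channel alone. Cebpa, the late regulator, read 56 to 66 units in the sample channel on the arrays of 3T3L-1 cells and was not well above background there, against 68 to 164 units on the arrays of Raw264.7 cells, all 4 well above background in that channel. The highest of these was the Raw264.7 array labelled serotonin, the array with the raised median signal.

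Among the genes of fatty acid uptake and storage, none reached a 2-fold difference from the untreated array in either line. Lpl had 2 probes, with log2 ratios in 3T3L-1 cells of -2.20, -2.40, -2.20 and -1.96 for the first and -1.95, -1.82, -2.22 and -1.95 for the second, in the order untreated, cortisol, serotonin and cortisol-serotonin. The means differed from the untreated array by -0.03, -0.13 and 0.13, and the probes disagreed on the direction with cortisol (-0.20 and 0.14) and with serotonin (0.0074 and -0.26). In the sample channel alone all 3 differences were 0.25 to 0.27. In Raw264.7 cells the first Lpl probe read -0.60, -0.20, -1.07 and -0.86 and the second -0.39, -0.19, -0.74 and -0.85. The Lpl difference was 0.30 with cortisol (error 0.206), -0.41 with serotonin (error 0.213) and -0.37 with cortisol-serotonin (error 0.212), and both probes had these directions. The fitted serotonin effect on Lpl in Raw264.7 cells was -0.54 (standard error 0.152, unadjusted p = 0.00838, limma adjusted p = 0.999), and its difference between the lines was 0.55 (unadjusted p = 0.0345, limma adjusted p = 0.627). In the sample channel alone Lpl of Raw264.7 cells was higher with cortisol-serotonin, by 0.10.

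Cd36, the fatty acid translocase and a scavenger receptor of macrophages, was read in Raw264.7 cells at log2 ratios of 3.34 without hormone, 3.20 with cortisol, 3.15 with serotonin and 4.07 with cortisol-serotonin. The cortisol-serotonin array was the highest, 1.65-fold above the untreated array (log2 0.73, error 0.65). The sample signals were 2110, 1527, 1961.5 and 3977.5 units. The differences with cortisol and serotonin were -0.14 and -0.18 (errors 0.607 and 0.603), and 0.08 and 0.42 in the sample channel alone. On the arrays of 3T3L-1 cells Cd36 gave 41 to 52 units and was not well above background, so no difference was read there. Plin2 had log2 ratios of 0.28, 0.39, 0.03 and 0.05 in 3T3L-1 cells and of -0.57, -0.55, -0.44 and -0.40 in Raw264.7 cells. Its differences ran from -0.25 to 0.17, each within its error of 0.289 to 0.297. In the sample channel alone Plin2 of Raw264.7 cells was higher by 0.18, 0.85 and 0.60.

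**Figure D4:**
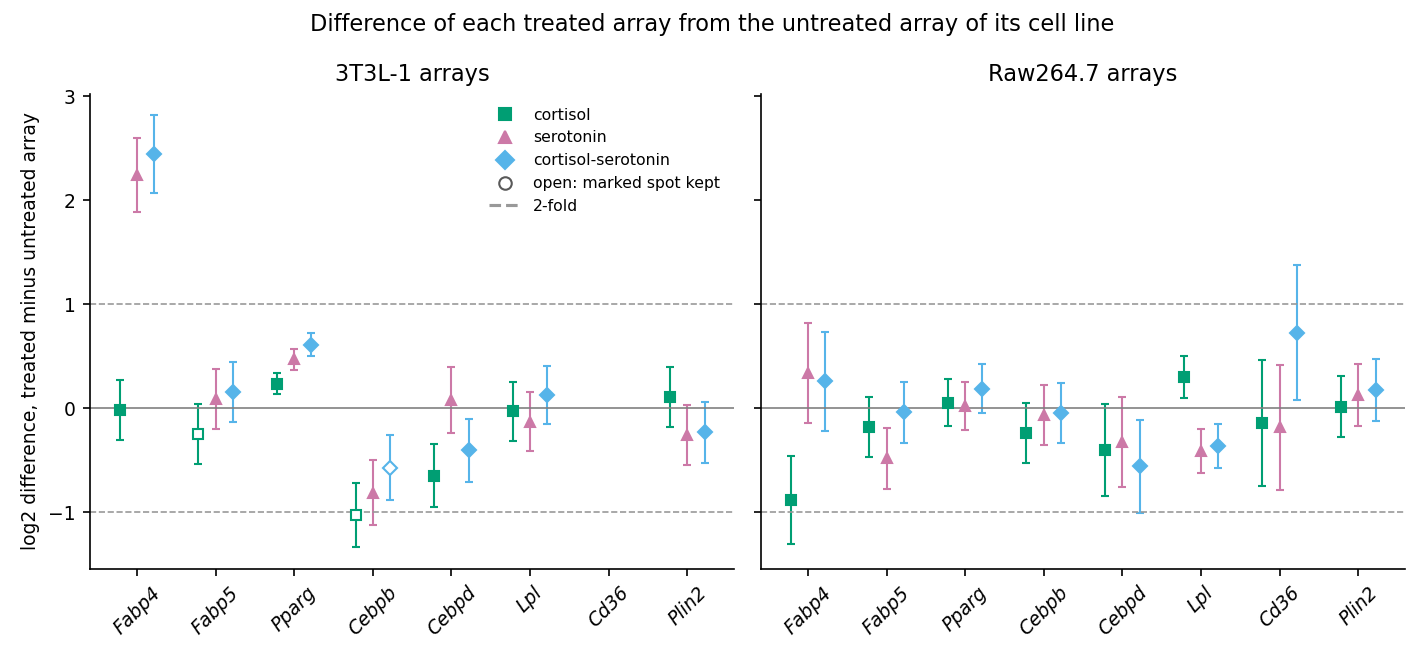
Log2 difference of each treated array from the untreated array of its line, vertical axis, for the 8 members with usable probes, in 3T3L-1 cells (left) and Raw264.7 cells (right). Bars are the technical error of the difference, dashed lines mark 2-fold, and open symbols rest on a spot the scanner marked. Only Fabp4 with serotonin (2.24) and with cortisol-serotonin (2.45) in 3T3L-1 cells passed 2-fold with unmarked spots after loess, and Cd36 has no value in 3T3L-1 cells.

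By count, 0 of 5 members measured differed at least 2-fold on the cortisol array of 3T3L-1 cells, 1 of 7 on the serotonin array and 1 of 6 on the cortisol-serotonin array, where 1.65%, 1.24% and 1.43% of all genes measured did so. In Raw264.7 cells the count was 0 of 8 on each array, where 0.083%, 0.914% and 0.254% of all genes measured did so for cortisol, serotonin and cortisol-serotonin. The median of the members was -0.01, 0.08 and 0.14 in 3T3L-1 cells and -0.16, -0.12 and 0.07 in Raw264.7 cells, and the median of all genes lay between -0.04 and 0.02. With median centring in place of loess the median of all genes rose to 0.59, 1.07 and 0.99 on the treated arrays of 3T3L-1 cells, and Fabp4 stood 0.36, 2.68 and 2.73 above it. The counts of members at 2-fold or more were then 1, 6 and 5, not corrected for that median, where 18.4%, 55.6% and 49.5% of all genes measured were past 2-fold.

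The cell lines differed in all 5 members that were measured on every array, in a limma fit of cell line with treatment as a block (3 residual degrees of freedom, 4 arrays of each line, which carry different treatments). The share called among all 10995 genes was 74.3%, so that a call is the rule and the sizes carry the comparison. Pparg was 23.6-fold higher in 3T3L-1 than in Raw264.7 cells (log2 4.56, standard error 0.116, limma adjusted p = 2.69e-10), with gaps of 4.30 to 4.74 on the 4 pairs of arrays of like treatment, and its Raw264.7 signal was 65.7 to 99 units. With the processed signals of the scanner software the Pparg difference was 5.83. Cebpd was 10.7-fold higher in 3T3L-1 cells (log2 3.41, standard error 0.125, limma adjusted p = 2.9e-09). Plin2 was 1.6-fold higher there (log2 0.68, standard error 0.123, limma adjusted p = 0.000539), a call lost with median centring (log2 0.56, limma adjusted p = 0.145) and in the sample channel alone (log2 0.29, limma adjusted p = 0.282). Lpl was 2.78-fold higher in Raw264.7 cells (log2 -1.48, standard error 0.140, limma adjusted p = 4.41e-06), and the 4 arrays of each line did not overlap for either probe.

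Fabp4 was also higher in Raw264.7 cells, but by an amount that differed among the treatments. The fitted difference was -1.34 (standard error 0.292, limma adjusted p = 0.00184), and the gap was 5.98-fold without hormone, 3.28-fold with cortisol, 1.6-fold with serotonin and 1.31-fold with cortisol-serotonin. The highest level of 3T3L-1 cells, 2.47 with cortisol-serotonin, lay above the lowest of Raw264.7 cells, 1.72 with cortisol. Cd36 was at least 34.7-fold higher in Raw264.7 cells, a bound set on each 3T3L-1 array by the higher of its own signal and the lowest signal well above background, from the means of normalized log2 signals per channel. For Cebpa the 3T3L-1 signals themselves set the value, so its 1.43-fold higher level in Raw264.7 cells is the gap observed and not a lower bound. These 3T3L-1 signals were not well above background. The highest Cebpa signal of Raw264.7 cells, 164 units, was on the serotonin array with the raised median signal. With the marked spots kept, Cebpb was 1.62-fold higher in 3T3L-1 cells (log2 0.70, limma adjusted p = 0.00108), and the Fabp5 difference was -0.07 (standard error 0.127, limma adjusted p = 0.623).

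**Figure D5:**
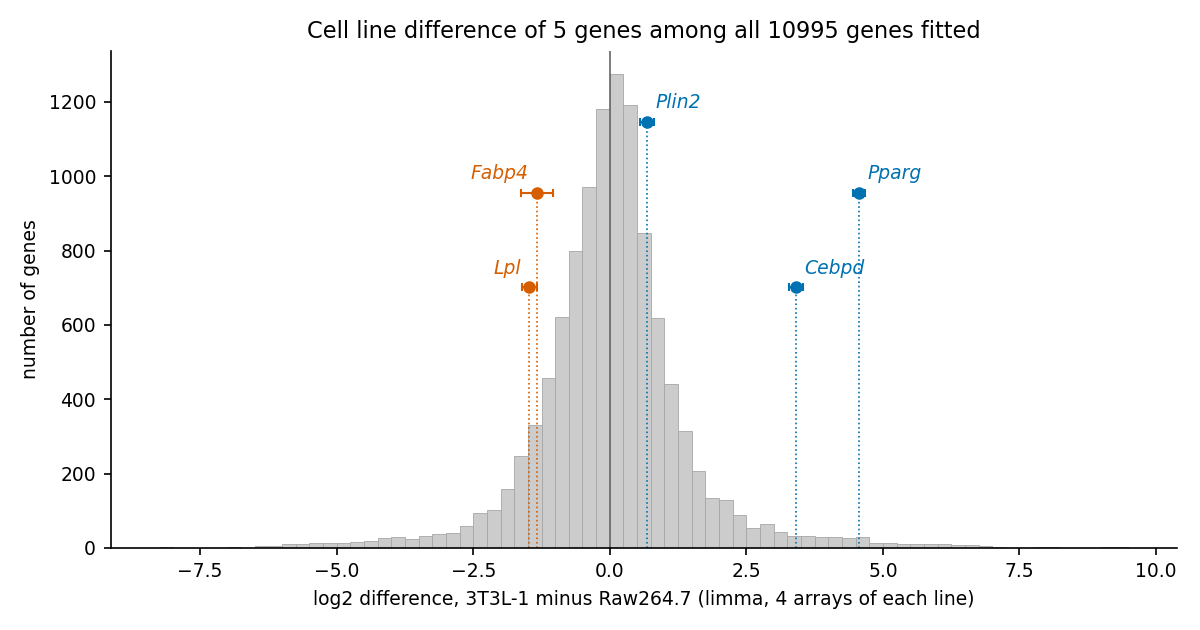
Number of genes, vertical axis, by log2 difference between 3T3L-1 and Raw264.7 cells, horizontal axis, in the limma fit of 10995 genes (grey), with the 5 members fitted placed at their difference and their standard error as bars; the height of the points has no meaning. Pparg (4.56) and Cebpd (3.41) lie far to the right of most genes, and Plin2 (0.68), Fabp4 (-1.34) and Lpl (-1.48) lie among them.

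Other genes of the same pathways, taken from lists, gave the setting. Of 32 adipogenic transcription regulators, 28 were measured on each treated array of 3T3L-1 cells, and the median difference was 0.01, -0.05 and -0.05 with cortisol, serotonin and cortisol-serotonin. Klf2, a repressor of Pparg, was lower on all 3 (log2 -1.41, -1.09 and -1.21, errors 0.328 to 0.354), although with median centring it read 0.065 with serotonin, where all genes stood at 1.07. In Raw264.7 cells Klf2 was higher by 0.86 (error 0.305) with cortisol and by 0.19 and 0.42 with serotonin and cortisol-serotonin by ratio, while the sample channel alone gave 0.49, -1.88 and -0.18. Rxra, the partner with which PPARγ binds DNA, was higher by 1.14 (error 0.362) with cortisol in 3T3L-1 cells and by 0.77 and 0.59 with serotonin and cortisol-serotonin. Without the filter on dim probes these were 0.59, 0.38 and 0.30, under 2-fold. Klf5, an activator of Pparg, reached 2-fold on the Raw264.7 array labelled serotonin alone, at 1.03 with an error of 0.621 (0.35 in the sample channel alone), the array with the raised median signal.

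Of 28 genes of mature fat cells, 14 or 15 were measured on the arrays of 3T3L-1 cells, with median differences of 0.26, 0.21 and 0.36 in the same order. Pyruvate carboxylase, Pcx, was higher by 1.05 with cortisol-serotonin in 3T3L-1 cells (error 0.298), and no gene of the list reached 2-fold by ratio in Raw264.7 cells, where Pcx with serotonin was 0.94 by ratio and -2.94 in the sample channel alone. Of 28 genes of lipid uptake, storage and efflux, 24 to 26 were measured, with medians of -0.05, -0.14 and 0.02. In this list the scavenger receptor Msr1 was lower with cortisol in 3T3L-1 cells (log2 -1.55, error 0.672, and -0.92 without the filter on dim probes), and none reached 2-fold on the other 5 treated arrays. None of 11 relatives of the FABP genes was at least 2-fold changed, with at most 2 measured.

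Between the lines, 12 of the 12 macrophage markers tested were higher in Raw264.7 cells and 10 of the 10 pre-adipocyte and fibroblast markers tested were higher in 3T3L-1 cells, with medians of -4.42 and 6.20 against 0.04 for all genes. Of all 10995 genes, 74.3% were called, 4180 higher in 3T3L-1 and 3989 higher in Raw264.7 cells. The counts of the lists below stand against that share and are not read as a trait of the lists. Of 23 adipogenic regulators tested, 10 were higher in 3T3L-1 cells, led by Dlk1, a marker of pre-adipocytes (26.2-fold), and 7 were higher in Raw264.7 cells, led by Klf2 (3.53-fold), Zfp467 (3.31-fold) and the oxysterol receptor gene Nr1h3 (2.37-fold). Of 13 genes of mature fat cells tested, 7 were higher in 3T3L-1 cells, with Plin4 60.3-fold and the triglyceride synthesis enzyme Dgat2 38.8-fold higher, and 3 in Raw264.7 cells, by at most 1.91-fold. Of 17 genes of lipid uptake, storage and efflux tested, 8 were higher in 3T3L-1 cells, led by Angptl4, an inhibitor of lipoprotein lipase (36.5-fold), and 6 in Raw264.7 cells, led by the cholesterol exporter Abcg1 (14.4-fold). Crabp2, a carrier of retinoic acid, was the single relative of the FABP genes tested and was 18.6-fold higher in 3T3L-1 cells.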

How the data were processed

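RNA of 8 co-cultures was hybridised to two-colour Agilent arrays, with the sample in Cy5 and a common reference in Cy3; the labels describe the reference as a mixture of all samples and the methods as untreated cells grown alone. Per the labels, the authors extracted the images with Agilent Feature Extraction 10.5.1.1. The deposited scanner files hold the signal and background intensity of both channels, not normalized across arrays, the processed signals and a log10 ratio with its error. The authors' deposited series matrix holds the same log10 ratio (within 0.005), so its direction is Cy5 over Cy3 and each column's median is 0.

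Signals were corrected with normexp (offset 50) and loess-normalised within arrays in limma 3.58.1 (R 4.3.3). Control spots and spots marked as outliers were left out, and the spots of a probe were averaged. Probes counted where over 0.5 of their unmarked spots passed the scanner's background test in Cy5 and in Cy3 on every array of a comparison, and probes of 1 gene were averaged. Gene names came from a RefSeq table (GRCm38.p6), in which 27508 probes matched. Single differences were counted from 2-fold, and the models used Benjamini-Hochberg adjusted p under 0.05. The members, lists and named genes (all members, the 5 nearest genes, at most 6 genes of a list past 2-fold, from the 3 largest per direction between lines, and genes for the label check) were chosen with earlier results of these data known. The models were tested on simulated data. Alternatives were the processed signals, no background correction, median centring, Cy5 alone, no dim filter, probe medians, the series matrix, marked spots kept (chosen after seeing the data), a 1.5-fold threshold, no treatment block, each line fitted alone and arrays left out. Some genes of the lists are not reported here. Precision is limited by the number of arrays.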

Additional observations from a re-analysis of the deposited data

How the results depend on the processing

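The counts of members past 2-fold moved under 3 settings. With median centring they were 1 with cortisol, 6 with serotonin and 5 with the combination in 3T3L-1 cells and 1 for cortisol in Raw264.7 cells, where the median of all genes itself moved by up to 1.07 and 18.4%, 55.6% and 49.5% of all genes (3T3L-1) and 0.121% (Raw264.7) were past 2-fold. A 1.5-fold threshold gave 1, 2 and 2 in 3T3L-1 cells and 1 each for cortisol and cortisol-serotonin in Raw264.7 cells. The share of all genes past 1.5-fold is not given here, so these counts are not read as a result about the members. With the marked spots kept, the count for cortisol in 3T3L-1 cells was 1 (Cebpb), where 230 of 14049 genes were past 2-fold. Members differing by cell line were 8 without the filter on dim probes, which lets in genes read at background, against 5, and 5 with any array left out. The share of all genes called without that filter is not given here. Members with a serotonin effect in 3T3L-1 cells were 0 with the processed signals, 0 with Cy5 alone, 0 with the series matrix values and 4 with median centring (41.2% of all genes called), against 1, and 0 to 1 with an array left out. For the difference between the lines in the serotonin effect, the count was 1 with median centring and 0 to 1 with an array left out, against 0. Under median centring 0.091% of all genes were called for that difference. Of 171 recomputed counts of members, 149 stayed within 1.5 times. Many of these counts were 0 in the main processing, where staying at 0 says little about stability. Among single genes, the difference of Klf2 with serotonin in 3T3L-1 cells turned to 0.065 with median centring, that of Col3a1, a fibroblast marker, with serotonin in Raw264.7 cells turned from 2.0 to -0.65 with Cy5 alone, and the Fabp4 effect of cortisol in 3T3L-1 cells, 0.10, turned to -0.010 with Cy5 alone and ranged from -0.014 (without the serotonin or the cortisol-serotonin array of that line) to 0.205 with an array left out. The cause was not tested. Over 8 alternatives Fabp4 with serotonin in 3T3L-1 cells ranged from 1.59 to 3.76 and with cortisol-serotonin from 1.49 to 3.73. Replicates could not be paired, because each condition has 1 array and so no replicate numbers to pair. The cell lines were matched by treatment instead, and without that match all 5 members stayed called. The slide could not be fitted as a block because it coincides with the cell line.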
